A study of Mus musculus with 12 samples.

Results

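The 10 genes described here are noncoding host genes of small nucleolar RNAs (snoRNAs) other than Gas5. They are Snhg1, Snhg3, Snhg5, Snhg6, Snhg8, Snhg12, Snhg15, Snhg16, Snhg20 and Zfas1, chosen by name as 10 of the 49489 gene rows of the total RNA table. The study sequenced RNA from a pulldown aimed at Gas5, itself a snoRNA host gene, in primary hippocampal neurons prepared from mouse pups at postnatal day 0 and kept in culture until day 16 in vitro. The total RNA titles give an antisense group and a sense group of 3 libraries each, and no strain, genotype or treatment is given for either. The titles leave unsaid which group was the capture and which the control. They also name no separate cultures behind the 3 replicates, so the p-values speak for the spread between libraries and that spread may be purely technical.

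A snoRNA host gene is transcribed by RNA polymerase II and spliced. Its snoRNAs are trimmed out of the introns and then guide the modification or cleavage of ribosomal and other RNAs, box C/D snoRNAs with methylation of the ribose and box H/ACA snoRNAs with pseudouridylation. The spliced exons of many noncoding hosts carry a start rich in pyrimidines and short open reading frames. They are exported, met by ribosomes and removed by nonsense-mediated decay, so the level of a spliced host transcript need not follow the level of its snoRNAs.

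On the scale set by TMM, which scales libraries so that the bulk of genes shows no difference, 1 of the 10 host genes was higher in the antisense libraries (Snhg15), 2 were lower (Snhg3 and Snhg20) and 7 did not pass. Across all 20049 genes tested, 18.2% were called higher and 4.35% lower at an adjusted p under 0.05 in the quasi-likelihood test of edgeR. Snhg15 stood 1.48 times as high in antisense, while Snhg20 stood 1.48 times and Snhg3 2.30 times as high in sense. The median log2 fold change, antisense minus sense, was -0.11 over the 10 host genes and -0.01 over all genes tested. Of 1219 genes typed as long noncoding RNA in the authors' deposited table whose mean level lay in the range of the host genes (5.47 to 30.7 CPM, counts scaled to a common library size), 39.6% were higher and 5.004% lower.

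The starts of the 3 called genes and of 3 host genes with overlapping libraries and no call are shown beside the second annotated start of Gas5. The start of a host gene is where the pyrimidine-rich tract and the core promoter lie. Each line runs 5′ to 3′ on the gene's own strand from 50 bases before to 50 bases after the start annotated by RefSeq (GRCm38.p6). Capitals mark the longest unbroken run of C and T within 20 bases of the start, and the letters TATAAA or TATATA or TATTTA before the start, CACGTG and also CCGGAAG or its reverse complement, and TGACGTCA.
Snhg15, chr11:6528711-6528810, minus strand: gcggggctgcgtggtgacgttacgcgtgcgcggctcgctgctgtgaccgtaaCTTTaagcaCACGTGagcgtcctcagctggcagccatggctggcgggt
Snhg3, chr4:132353637-132353736, minus strand: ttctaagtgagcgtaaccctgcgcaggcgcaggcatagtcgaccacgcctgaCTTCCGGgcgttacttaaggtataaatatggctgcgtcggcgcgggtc
Snhg20, chr11:117076733-117076832, plus strand: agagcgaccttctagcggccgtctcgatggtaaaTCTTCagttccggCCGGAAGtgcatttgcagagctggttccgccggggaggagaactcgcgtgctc
Snhg1, chr19:8723437-8723536, plus strand: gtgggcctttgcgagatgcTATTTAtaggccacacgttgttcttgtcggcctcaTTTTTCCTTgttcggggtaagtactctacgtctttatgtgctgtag
Snhg12, chr4:132308628-132308727, plus strand: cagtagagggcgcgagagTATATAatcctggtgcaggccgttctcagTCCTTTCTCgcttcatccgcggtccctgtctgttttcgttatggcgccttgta
Snhg5, chr9:88522848-88522947, minus strand: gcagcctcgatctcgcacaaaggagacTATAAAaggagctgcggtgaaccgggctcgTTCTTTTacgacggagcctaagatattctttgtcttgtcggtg
Gas5, chr1:161035116-161035215, plus strand: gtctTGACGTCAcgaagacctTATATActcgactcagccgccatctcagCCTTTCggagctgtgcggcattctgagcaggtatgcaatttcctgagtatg

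RefSeq promoter windows of 250 bases before to 50 after the start were at hand for 9 of the 10 host genes, all except Snhg6, and were read against all 32841 windows without ambiguous bases. The gene's own strand held TATAAA or TATATA or TATTTA in the 50 bases before the start in 4 of the 9 (Snhg1, Snhg5, Snhg8 and Snhg12), against 4.75% of all windows. TATAAA alone lay there in 2 of the 9, Snhg5 and Snhg8, against 2.63% of all windows. All 3 forms were absent there from the 3 called genes and also from the uncalled Snhg16 and Zfas1. The called Snhg3 does hold TATAAA on its own strand after the start, from base 23, outside the stretch searched. A C and T run of at least 7 bases lay near the start in 5 of the 9 (Snhg1, Snhg5, Snhg8, Snhg12 and Snhg16), against 30.6% of all windows. The 3 called genes had runs of 4 or 5 bases, and the uncalled Zfas1 had a run of 4. The 3 uncalled genes shown above (Snhg1, Snhg12 and Snhg5) have both features, which not all uncalled genes do. Searched on both strands, CCGGAAG, the core of sites bound by ETS factors, occurred in 2 of the 9, Snhg3 and Snhg20, against 8.86% of all windows, and in Snhg3 it overlaps the C and T run. The E-box CACGTG (7.15% of all windows) and the cyclic AMP response element TGACGTCA (1.79%) occurred in 1 of the 9 each, both in Snhg15, the latter 88 bases before the start. The second annotated Gas5 start, the one shown, also has TGACGTCA, 46 bases before it. The first annotated Gas5 start has a C and T run of 3 bases, and its window holds none of the motifs searched. The windows of the host genes held a median of 25 CG dinucleotides against 7 over all windows. The motifs and both lengths were chosen after the values and these sequences had been seen, a match is only a match of letters, and starts used in these neurons may differ from the annotated ones.

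Total RNA libraries held 5775052 to 10424167 estimated counts. Gas5 took 11.6% ± 2.34 (SD, n = 3) of the antisense counts and 45.3% ± 12.3 (SD, n = 3) of the sense counts, most in sense replicate 1. The neuron markers Map2, Snap25, Syt1, Tubb3 and Rbfox3 were all detected, at a summed 720.2 to 904.5 CPM in antisense and 902.6 to 1110 CPM in sense, and none of the 5 passed. Summed astrocyte markers (Gfap, Aqp4, Aldh1l1, Slc1a3 and Gja1) reached 879.1 to 1083 CPM in antisense and 988.0 to 1272 CPM in sense, and 1 of the 5 passed as lower in antisense. Summed oligodendrocyte lineage markers lay at 237.1 to 284.8 and 279.2 to 379.5 CPM, and vascular markers at 22.1 to 28.3 and 26.6 to 30.3 CPM. Summed microglia markers lay at 14.4 to 17.9 and 7.71 to 9.82 CPM, with 1 of 3 tested higher. That gene was P2ry12, with 33, 28 and 30 estimated counts in antisense and 0, 0 and 2 in sense. Cx3cr1 and Csf1r overlapped between groups and did not pass. The microglia markers Aif1 and Tmem119 and the vascular markers Cldn5 and Rgs5 were too low to be tested. The part of these cell types in the results on host genes was not tested. In RNA from a pulldown, fewer cells of a type, less RNA per cell and a difference in what was captured cannot be told apart.

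Snhg15, whose span on chromosome 11 (6525591 to 6528760, minus strand, GRCm38.p6) holds 1 snoRNA gene in RefSeq, was the host gene higher in antisense. It stood at 34.3, 33.5 and 36.2 CPM in antisense replicates 1 to 3 and at 23.4, 24.3 and 22.8 CPM in sense. All 3 antisense libraries lay above all 3 sense libraries, as for 23.4% of all genes, with a gap wider than the spread of either group. Group means were 34.7 ± 1.36 and 23.5 ± 0.768 CPM (SD, n = 3 each), and the log2 fold change was 0.56 (SE 0.109, edgeR adjusted p = 0.00112). Snhg15 passed in each of 12 alternative settings, with log2 fold changes from 0.53 to 1.27. Its E-box, shown above, is a feature of the sequence only.

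Snhg3, host of the H/ACA snoRNAs Snora73a and Snora73b (U17), which act in the cleavage of ribosomal RNA precursors, was lower in antisense and had the largest difference of the 10. It stood at 2.63, 4.62 and 2.68 CPM in antisense and at 8.22, 5.77 and 8.91 CPM in sense. The groups did not overlap, with all antisense libraries below all sense libraries as for 13.2% of all genes, and antisense replicate 2 lay closest to sense replicate 2. Group means were 3.31 ± 1.14 and 7.63 ± 1.65 CPM (SD, n = 3 each), and the log2 fold change was -1.19 (SE 0.286, edgeR adjusted p = 0.00585). It rests on few reads, with 20.2, 36.3 and 20.1 estimated counts in antisense and 52.4, 37.0 and 51.7 in sense, and at a minimum count of 50 the gene was not tested. The gene lies on chromosome 4 from 132351933 to 132353686 on the minus strand, and overlaps no gene in RefSeq other than its snoRNAs.

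The snoRNA rows nested in Snhg3 did not pass with all libraries. Snora73b stood at 71.0, 81.3 and 127.5 CPM in antisense and 103.9, 92.7 and 143.2 CPM in sense (log2 fold change -0.28, SE 0.19, edgeR adjusted p = 0.341). Snora73a stood at 28.1, 27.5 and 52.0 CPM in antisense and 37.2, 34.1 and 46.2 CPM in sense (log2 fold change -0.13, SE 0.204, edgeR adjusted p = 0.720). For both, replicate 3 had the highest level of each group and the groups overlapped. Without antisense replicate 3 both passed as lower, at log2 fold changes of -0.57 (edgeR adjusted p = 0.0118) and -0.49 (edgeR adjusted p = 0.0176). Snora73a and Snora73b are similar copies and lie within the span of Snhg3, so the split of reads between the 3 rows is uncertain.

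Set against its own snoRNAs, which needs no library scaling, Snhg3 had 2.68, 4.28 and 1.5003 counts per 100 counts of Snora73a and Snora73b together in antisense and 5.88, 4.55 and 4.68 in sense. The 3 antisense libraries lay below the 3 sense libraries, antisense replicate 2 only just. The log2 ratio differed by -0.95 (antisense minus sense; exact permutation test, two-sided, p = 0.1, the smallest that 3 against 3 libraries can give), and by -0.56 without antisense replicate 3. Against Snora73b alone the groups did not overlap either (exact permutation test, two-sided, p = 0.1). Against Snora73a alone they overlapped, with antisense replicate 2 at 16.94 and sense replicate 2 at 16.89 counts per 100 (log2 difference -1.04; exact permutation test, two-sided, p = 0.2). Against the neighbouring host gene Snhg12, which lies 40908 bases away on the other strand of chromosome 4, Snhg3 had 15.01, 22.9 and 13.3 counts per 100 in antisense and 38.6, 28.4 and 37.1 in sense. That log2 ratio differed by -1.05 (exact permutation test, two-sided, p = 0.1). The Snhg3 ratios were not among the planned comparisons and use the same Snhg3 counts as its call, so they give it no independent support.

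Snhg20, on the plus strand of chromosome 11 (117076783 to 117078955), was also lower in antisense, and its span holds the miRNA gene Mir6516 and no snoRNA gene in the RefSeq table. It stood at 11.3, 11.3 and 12.1 CPM in antisense and at 19.8, 16.0 and 15.6 CPM in sense. The groups did not overlap, with all antisense libraries below all sense libraries as for 13.2% of all genes. Sense replicate 1, the library with the largest Gas5 share, was the highest. Group means were 11.6 ± 0.435 and 17.1 ± 2.29 CPM (SD, n = 3 each), and the log2 fold change was -0.57 (SE 0.155, edgeR adjusted p = 0.0139). Without sense replicate 1 the log2 fold change was -0.47 and the call was lost (edgeR adjusted p = 0.0665). The DESeq2 adjusted p was 0.0604, so only 1 of the 10 host genes was lower by that tool, and over 12 alternatives the adjusted p ran from 0.0127 to 0.577.

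**Figure D1:**
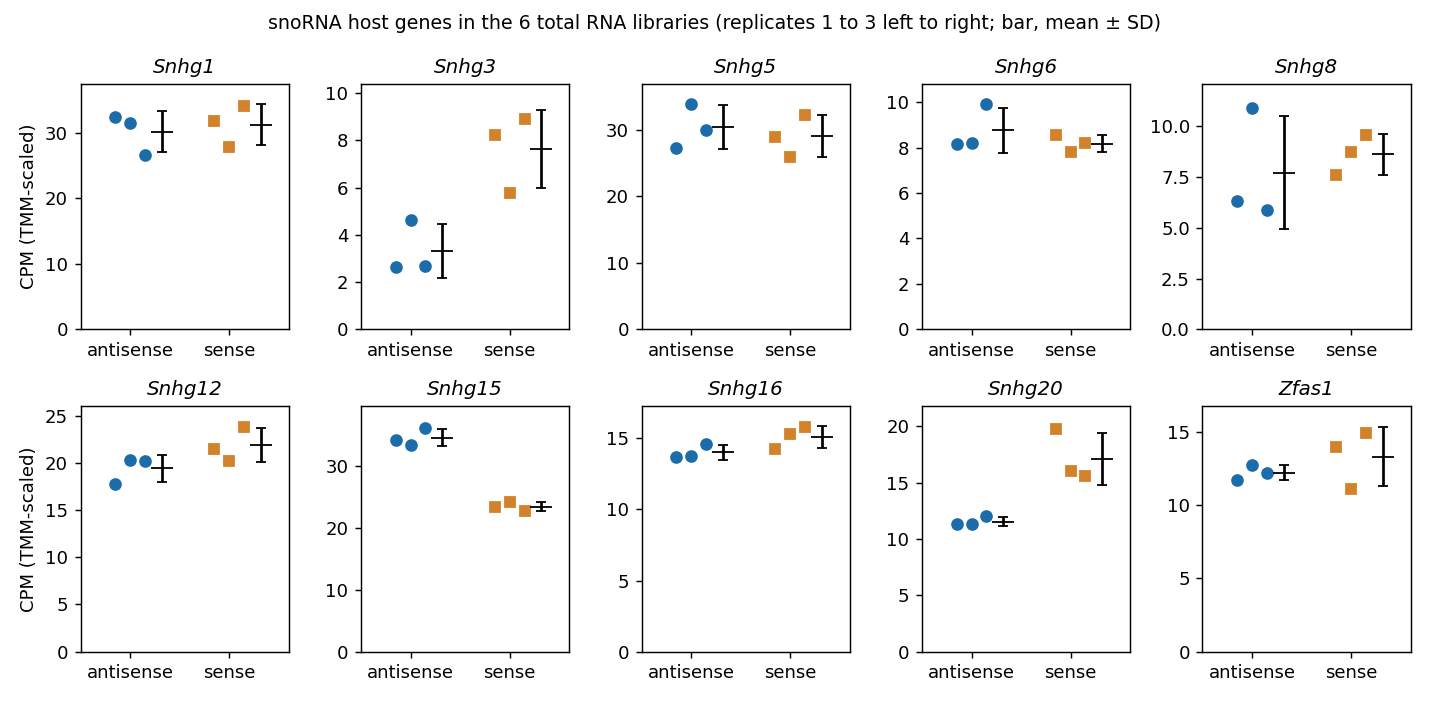
Level of each of the 10 host genes (y axis, TMM-scaled CPM from 0, one scale per panel) in the 3 antisense libraries (circles) and the 3 sense libraries (squares), replicates 1 to 3 from left to right, with the mean ± SD of each group beside them. Snhg15 is higher in antisense (34.7 against 23.5 CPM), Snhg3 and Snhg20 are lower, and the points of the other 7 genes overlap between groups.

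Among hosts of box C/D snoRNAs, Snhg1, Snhg5, Snhg16, Snhg6 and Zfas1 had overlapping groups. Snhg1, with 8 snoRNA genes in its span, stood at 32.5, 31.5 and 26.7 CPM in antisense and 31.8, 27.9 and 34.1 CPM in sense (log2 fold change -0.05, 95% interval -0.31 to 0.21). Snhg5, host of the Snord50 snoRNAs, stood at 27.2, 33.8 and 30.01 CPM in antisense and 28.9, 25.9 and 32.2 CPM in sense (log2 fold change 0.07, 95% interval -0.20 to 0.33). Snhg1 and Snhg5 had the most counts of the 7 genes without a call. On the TMM scale their intervals leave no room for a difference of the size seen for Snhg3.

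Snhg16, host of Snord1a, Snord1b and Snord1c, stood at 13.7, 13.7 and 14.6 CPM in antisense and 14.2, 15.3 and 15.8 CPM in sense (log2 fold change -0.11, 95% interval -0.41 to 0.20). Zfas1, host of Snord12, stood at 11.7, 12.7 and 12.2 CPM in antisense and 13.9, 11.1 and 14.9 CPM in sense (log2 fold change -0.12, 95% interval -0.47 to 0.23). Its start overlaps that of Znfx1, a gene on the other strand, by 82 bases. Znfx1 stood at a mean of 84.5 CPM in antisense and 102.0 CPM in sense and did not pass (log2 fold change -0.27, edgeR adjusted p = 0.0919).

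Snhg6, host of Snord87, stood at 8.15, 8.22 and 9.91 CPM in antisense and 8.54, 7.79 and 8.22 CPM in sense (log2 fold change 0.10, 95% interval -0.31 to 0.50). Mcmdc2 overlaps it by 1582 bases and did not pass (log2 fold change 0.30, edgeR adjusted p = 0.0546). Whether counting used strand is not given in the sources used here, so reads of Snhg6 and Mcmdc2, and of Zfas1 and Znfx1, may not be told apart.

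Snhg12 and Snhg8 also overlapped between groups. Snhg12, with 4 snoRNA genes in its span, 3 of them of the H/ACA type, stood at 17.8, 20.3 and 20.2 CPM in antisense and 21.5, 20.3 and 23.8 CPM in sense (log2 fold change -0.17, 95% interval -0.45 to 0.11). Snhg8, host of the H/ACA snoRNA Snora24, stood at 6.31, 10.9 and 5.895 CPM in antisense and 7.59, 8.73 and 9.59 CPM in sense (log2 fold change -0.16, 95% interval -0.69 to 0.37). Antisense replicate 2 had the highest Snhg8 level of all 6 libraries while the other antisense libraries had the lowest, so this gene gave the widest interval of the 7. No order of levels between genes is given, since the counts are not per transcript length.

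**Figure D2:**
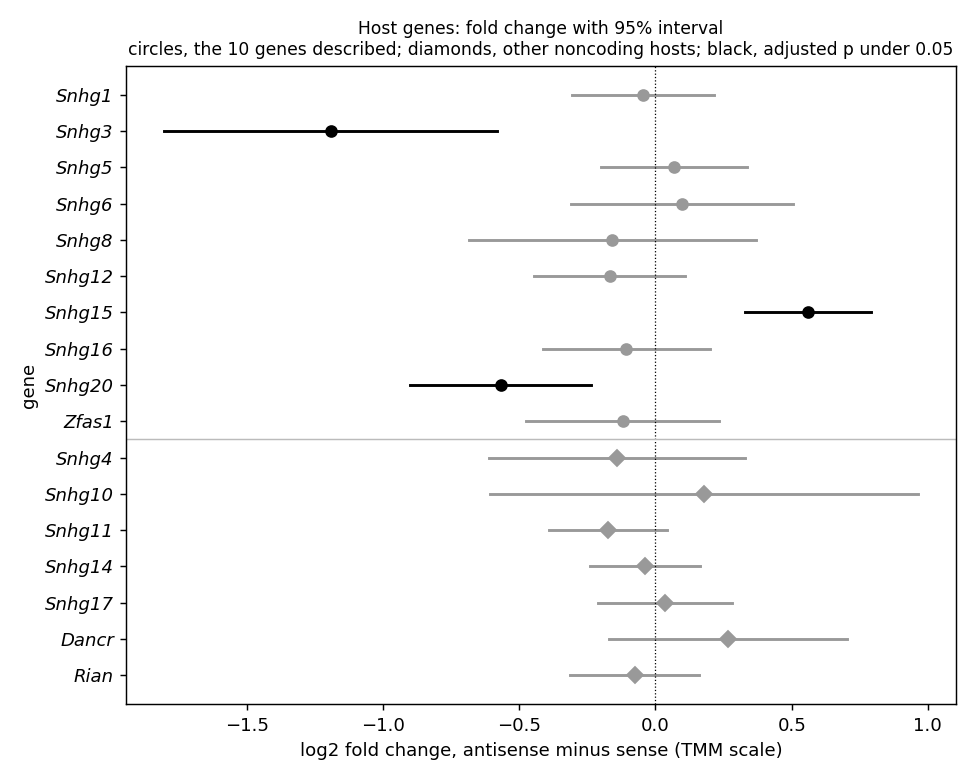
Log2 fold change, antisense minus sense on the TMM scale (x axis), with its 95% interval (lines) for the 10 host genes (circles) and 7 other noncoding snoRNA host genes that were tested (diamonds). Black marks an adjusted p under 0.05, which Snhg3, Snhg15 and Snhg20 have, and the intervals of all other genes shown include 0.

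The make-up of the set re-expresses the same counts as shares, without any library scaling, and is no independent support for the calls. Snhg15 made up 20.2% ± 1.44 of the summed counts of the 10 genes in antisense and 13.4% ± 1.36 in sense (SD, n = 3 each). Snhg20 made up 6.72% ± 0.416 and 9.78% ± 1.36, and Snhg3 1.92% ± 0.570 and 4.32% ± 0.682. In these 3 genes and in Snhg12 (11.3% ± 0.595 and 12.5% ± 0.388) the libraries of the groups did not overlap. Each had an exact permutation p = 0.1, two-sided, the smallest that 3 against 3 libraries can give (Benjamini-Hochberg over the 10 genes, 0.25). Over all genes, on TMM-scaled CPM rather than shares, the antisense libraries all lay above the sense libraries for 23.4% and below for 13.2%. The other 6 genes overlapped, and Snhg1 was nearly equal at 17.6% ± 1.98 and 17.8% ± 0.636. Shares sum to 100%, so a larger share of one gene lowers the others.

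Per 100 counts of Snhg20 there were 303.8, 296.1 and 300.5 counts of Snhg15 in antisense and 118.7, 151.5 and 145.8 in sense. The 3 antisense libraries lay close together and far from the sense libraries, a log2 difference of 1.12. This pair was chosen after its values were seen. Both genes already separated the groups, in opposite directions, so their ratio had to separate them and no test is given.

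**Figure D3:**
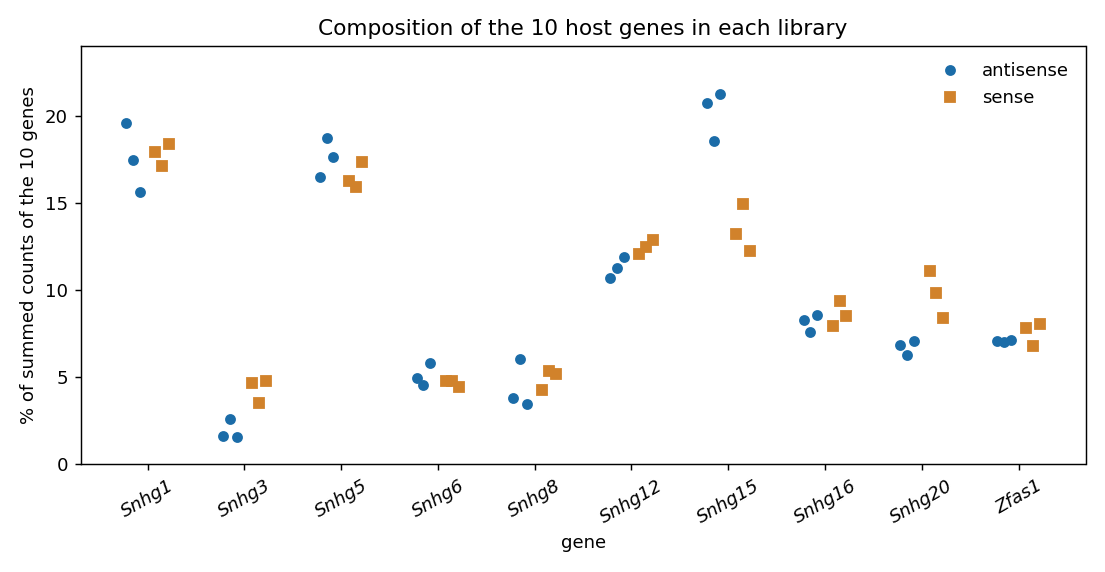
Share of each host gene in the summed counts of the 10 genes (y axis, %) in the 3 antisense (circles) and 3 sense libraries (squares). Snhg15 takes 13.4% in sense and 20.2% in antisense on average, while Snhg20 and Snhg3 take smaller shares in antisense.

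In the authors' deposited table, whose differences run as sense minus antisense, the log2 fold change was -0.55 for Snhg15 (DESeq adjusted p = 0.00556), 1.19 for Snhg3 (DESeq adjusted p = 0.0153) and 0.58 for Snhg20 (DESeq adjusted p = 0.0607), so that the last did not pass there either.

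As a sum, the 10 host genes reached 172.2 ± 7.66 CPM in antisense and 175.6 ± 11.6 CPM in sense on the TMM scale (SD, n = 3 each), a difference smaller than the spread of either group. As CPM of the counts outside Gas5 they reached 249.3 ± 10.3 in antisense and 252.3 ± 12.6 in sense. As CPM of all counts, Gas5 included, they reached 220.2 ± 3.37 and 137.5 ± 27.2, which is 1.602 times as high in antisense. Directions therefore depend on the scale. On library totals alone the median over all genes was 0.70 on the log2 scale and that of the 10 host genes was 0.61, Snhg20 turned to 0.17 and Snhg3 stayed negative at -0.46 but did not pass (edgeR adjusted p = 0.231). On that scale Snhg1, Snhg5, Snhg6 and Snhg15 passed as higher and none as lower, while over all 20049 genes tested 12804 passed as higher and 62 as lower.

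**Figure D4:**
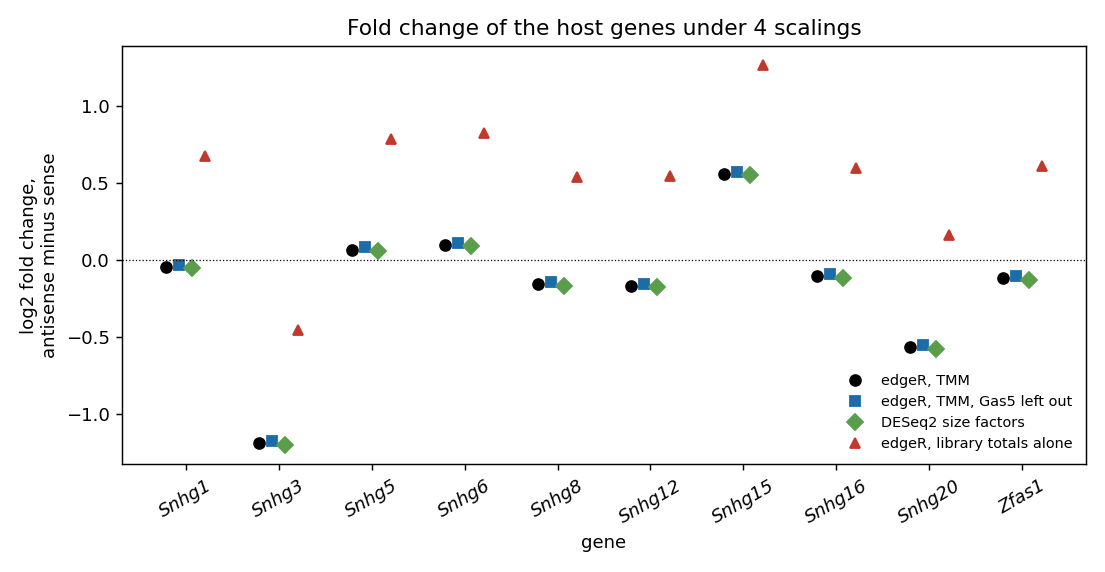
Log2 fold change, antisense minus sense (y axis), of the 10 host genes under TMM, TMM with Gas5 left out, DESeq2 size factors and library totals alone. The first 3 scalings lie close together for every gene, and library totals, which contain Gas5, move each gene upward, with Snhg3 alone remaining below 0.

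Across libraries the 10 genes did not share one profile. Over the 6 libraries, the log2 CPM of Snhg12 had a Pearson r of 0.89 with the mean of the other 9, Zfas1 0.78 and Snhg3 0.75, while Snhg6 had -0.35 and Snhg15 -0.84. The genes whose log2 CPM followed the mean profile of the 10 most closely, among 10994 genes with a mean of at least 10 CPM, were Pias3 (0.99), Adal (0.99), Cnot7 (0.98), Tyro3 (0.98) and Rps6 (0.98). These last genes were picked for the highest coefficients among many candidates over only 6 points, so high values were built in. The points also share libraries, depth and scaling, so all these coefficients only describe the 6 libraries.

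Other noncoding host genes did not pass in either direction. Of 11 listed, 7 were tested, with log2 fold changes from -0.17 to 0.27 and a median of -0.04 (0 called by edgeR, 0 at an unadjusted p under 0.05 and 0 by DESeq2). Snhg11, a brain-enriched host, stood at 182.5, 190.8 and 150.3 CPM in antisense and 194.5, 190.9 and 205.9 CPM in sense (log2 fold change -0.17, edgeR adjusted p = 0.253). Dancr had a log2 fold change of 0.27 (edgeR adjusted p = 0.402).

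Protein-coding host genes, most of which encode ribosomal proteins and translation factors, leaned slightly negative. Of 32 tested, 26 had a negative log2 fold change, the median was -0.11, 2 were higher in antisense and none was lower. Over all genes tested, the median was -0.01, and 18.2% were higher and 4.35% lower. Protein-coding genes in the CPM range of the noncoding hosts described also had a negative median, -0.06, with 8.57% higher and 3.36% lower. Most of the coding hosts, such as Eif4g2 and Rack1, lie above that range and Rcc1 lies below it, so these shares are no matched background. Dkc1, which encodes the pseudouridine synthase dyskerin and also hosts H/ACA snoRNAs, stood at 25.5, 26.3 and 29.6 CPM in antisense and 15.3, 17.6 and 15.2 CPM in sense, and its log2 fold change was 0.75 (SE 0.13, edgeR adjusted p = 0.000369). Cct6a, which encodes a chaperonin subunit, had a log2 fold change of 0.38 (edgeR adjusted p = 0.00704) and lost its call without sense replicate 1 (0.0611). The count of lower genes moved with single libraries, to 3 without antisense replicate 2 and 5 without sense replicate 2, among them Eef2 (log2 fold change -0.44 with all libraries, edgeR adjusted p = 0.0518).

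Genes for snoRNA-binding and assembly proteins were mixed. Of 18 tested, 3 were higher, none was lower and 15 missed the threshold (median log2 fold change -0.01). Over all genes tested, 18.2% were higher and 4.35% lower. Besides Dkc1, the higher genes were Snu13 (0.52, edgeR adjusted p = 0.0264), which encodes the box C/D protein that binds the kink-turn, and Fbl (0.44, edgeR adjusted p = 0.0426), which encodes the methyltransferase fibrillarin. Dkc1 passed whichever library was left out. Fbl missed the threshold without antisense replicate 1 (0.0949), antisense replicate 3 (0.136), sense replicate 1 (0.152) or sense replicate 3 (0.102), and Snu13 without antisense replicate 2 (0.0594), antisense replicate 3 (0.102), sense replicate 1 (0.125) or sense replicate 3 (0.0501). By DESeq2 only Dkc1 of the 3 passed.

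Most snoRNAs of the 10 hosts left few reads in these total RNA libraries. Of 23 listed, 14 had a row in the table and 3 were tested, Snora73a, Snora73b and Snord22. Snord22, in an intron of Snhg1, had 10.7, 15.6 and 19.9 estimated counts in antisense and 24.3, 13.8 and 10.1 in sense, and did not pass (log2 fold change -0.32, edgeR adjusted p = 0.616). The other 11 rows had fewer than 10 estimated counts in every library, and Snord1a, Snord1b and Snord12 were at 0 in all 6.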

How the data were processed

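Total RNA was measured in 3 antisense and 3 sense libraries, and the small RNA libraries were not used. The deposited total RNA table holds estimated counts per gene, and Salmon, DESeq and the build GRCm38 are named per the submitters' processing notes, without versions. The authors' deposited comparison table gives a signal (mean normalised level), log2 fold changes, a score (Wald statistic) and p-values, and only its gene types and the values of the called genes were used. Transcript index and strand setting were not given in the labels read. All 6 total RNA columns entered.

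Estimated counts were rounded, filtered with filterByExpr (minimum count 10), scaled by TMM and tested with edgeR 4.0.16 (R 4.3.3) quasi-likelihood F tests, two-sided, on the whole table, antisense minus sense, at a Benjamini-Hochberg adjusted p of 0.05. Standard errors are the log2 fold change over the square root of F. Gene lists were named by hand, and list genes are named when called, at most 6 by smallest p, otherwise the 2 with smallest p. The members and lists were chosen with earlier results of these data known. Titles share replicate numbers, but same-numbered libraries did not deviate together (correlations 0.05, -0.06 and -0.01), so no block was used. Alternatives were library totals, Gas5 left out, DESeq2 1.42.0, other filters, a replicate block and each library left out. Positions and promoters came from RefSeq (GRCm38.p6), matched by symbol. The steps were tested on simulated counts. The reads carry no molecular identifiers, so counting error is a lower limit of their error.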

Additional observations from a re-analysis of the deposited data

How the results depend on the processing

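Snhg15 kept its direction and its call in all 12 alternatives and Snhg3 in 10 of 11, the exception being library totals alone. On library totals alone 4 host genes were higher and 0 lower, the median log2 fold change of the 10 was 0.61, and log2 fold changes turned to 0.68 for Snhg1, 0.54 for Snhg8, 0.55 for Snhg12, 0.60 for Snhg16, 0.17 for Snhg20 and 0.61 for Zfas1. Those totals contain Gas5. On the same scale 5 of 7 other noncoding hosts tested, 24 of 32 protein-coding hosts and 11 of 18 snoRNP protein genes were higher. Over all 20049 genes tested, 12804 were higher and 62 lower on that scale. The number of lower host genes was 1 by DESeq2 and 1 at a minimum count of 50, where Snhg3 was not tested. Protein-coding hosts called lower numbered 1 with no filter and 1 by DESeq2, and snoRNP protein genes called higher numbered 1 by DESeq2. With each library left out in turn, lower host genes numbered 1 to 2, higher host genes 1 to 1, and the median ran from -0.14 to -0.06. Protein-coding hosts called higher numbered 1 to 2 and lower 0 to 5, and snoRNP protein genes called higher 1 to 3 and lower 0 to 1. Without single libraries the log2 fold changes of 3 uncalled genes changed sign, within -0.126 to 0.0313 for Snhg1, -0.0243 to 0.14 for Snhg5 and -0.00245 to 0.142 for Snhg6. The replicate block changed no call of the 10 host genes (Snhg3 -1.20, Snhg15 0.56 and Snhg20 -0.56) but Fbl missed the threshold with it (edgeR adjusted p = 0.0688). Over all genes, calls lower in antisense numbered 873, and 402 at a minimum count of 50, with 571 left without antisense replicate 1, 534 left without sense replicate 1 and 492 left without sense replicate 3. Low counts limit Snhg3 most. Causes were not tested.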
